A study of Mus musculus with 4 samples.

Results

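The platelet-derived growth factor (PDGF) family was examined in the embryonic ureter after inhibition of WNT secretion. All probes whose gene name on the array was Pdgfa, Pdgfb, Pdgfc, Pdgfd, Pdgfra or Pdgfrb were taken, that is 4 ligand genes and 2 receptor genes with 8 of the 39429 gene probes and 6 of the 29924 gene names. Ureters of wild-type NMRI mouse embryos were explanted at E12.5 and cultured without serum for 18 h, either in 10 µM IWP-2 or in the solvent DMSO (2 parts per 1000) as control. IWP-2 inhibits Porcupine, the enzyme that adds the lipid that WNT ligands need to leave the cell. Each of the 4 two-colour arrays set RNA of pooled treated ureters against RNA of pooled control ureters. The treated RNA was in the red channel on arrays 1 and 3 and in the green channel on arrays 2 and 4. The study's methods give n = 4 for E12.5, but its results and a figure legend speak of 2 arrays or 2 pools per stage. Whether the 4 arrays hold separate pools or repeats of fewer pools is therefore not known. Epithelium, mesenchyme and vessels of the whole explant were pooled, so that fewer cells of a type and less RNA per cell cannot be told apart. The drug acts on all cells of the explant and on all WNT ligands. Axin2, a feedback inhibitor and standard target of WNT signalling, was lower by a mean log2 ratio of -1.56 ± 0.085 (SD, n = 4 arrays; limma, adjusted p = 1.23e-05).

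PDGF ligands are secreted dimers linked by disulphide bonds. The A and B chains are cut to their active form by convertases inside the cell, while the C and D chains leave the cell as latent factors whose CUB domain is cut off outside it by proteases such as the plasminogen activators. The receptor PDGFRα binds A, B and C chains, and PDGFRβ binds B and D chains. Both are class III receptor tyrosine kinases that relay to RAS, PI3 kinase and phospholipase C. In developing organs PDGFRα typically marks mesenchyme that receives ligand from the epithelium, whereas PDGFRβ is needed in pericytes and vascular smooth muscle, the mural cells, which are drawn to PDGF-B from the endothelium.

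The array sequences and promoters of the ligands that fell, with the promoter of the receptor Pdgfra for comparison, are given here because the largest fall among the members lies with Pdgfc. The Pdgfc probe covers chr3:81017572-81017631 (mm9, plus strand), and its first 30 of 60 bases are shown. The Pdgfd probe covers chr9:6376926-6376985 (mm9, plus strand) and is shown whole. The promoters are the 250 bases before the RefSeq start on GRCm38.p6, at chr3:81036166-81036415 for Pdgfc, chr9:6168236-6168485 for Pdgfd and chr5:75152001-75152250 for Pdgfra, all on the plus strand.
Pdgfc probe: aaatatggagccattgctaacctacccctt
Pdgfd probe: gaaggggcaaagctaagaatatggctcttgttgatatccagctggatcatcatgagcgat
Pdgfc promoter: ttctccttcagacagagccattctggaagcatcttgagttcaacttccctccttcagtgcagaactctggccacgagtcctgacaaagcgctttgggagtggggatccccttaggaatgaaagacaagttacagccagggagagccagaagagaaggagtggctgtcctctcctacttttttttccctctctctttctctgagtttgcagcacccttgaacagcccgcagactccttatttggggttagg
Pdgfd promoter: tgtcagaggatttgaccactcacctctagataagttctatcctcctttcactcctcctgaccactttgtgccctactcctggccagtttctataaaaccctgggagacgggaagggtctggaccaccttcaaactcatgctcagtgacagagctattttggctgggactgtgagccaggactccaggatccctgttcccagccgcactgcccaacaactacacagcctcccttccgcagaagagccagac
Pdgfra promoter: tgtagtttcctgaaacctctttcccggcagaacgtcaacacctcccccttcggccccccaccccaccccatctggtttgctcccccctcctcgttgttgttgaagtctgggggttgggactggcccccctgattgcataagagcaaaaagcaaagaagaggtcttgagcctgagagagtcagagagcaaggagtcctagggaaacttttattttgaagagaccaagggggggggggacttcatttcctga
These 3 windows and the 2 windows listed for Pdgfa were searched on both strands for letters that transcription factors recognise. The motif CTTTGAA, read by the TCF/LEF factors that act in WNT signalling, was absent, and so was its variant that ends in T instead, that is CTTTGAT. No window held the GLI motif, spelled TGGGTGGTC, or the forkhead motif, spelled GTAAACA. The CCAAT box was also absent, so that nothing is capitalised. The search also took in the 50 bases after the start. Of all 32851 RefSeq promoter windows of this length, 8.65% hold one of the TCF/LEF motifs, 0.253% the GLI letters, 3.65% the forkhead letters and 37.4% a CCAAT box. The share of G and C was 50.8% for Pdgfc, 53.6% for Pdgfd and 54.4% for Pdgfra, against a median of 52.4% over all promoters. It was higher, at 66.4% and 72.4%, in the 2 Pdgfa windows.

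Pdgfc and Pdgfd fell, Pdgfrb rose, and Pdgfa, Pdgfb and Pdgfra did not pass the test. All 8 probes were well above background in both channels of all 4 arrays, so that all 6 genes were tested among the 22461 genes of the arrays. Of all genes tested, 15.0% were called lower, 18.1% higher and 33.1% in either direction, and of the 6 members 2 were called lower and 1 higher. The log2 ratios of all genes tested had a median size of 0.095 and a median SD between arrays of 0.11. The SDs of the members lay between 0.035 for Pdgfd and 0.22 for Pdgfra.

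**Figure D1:**
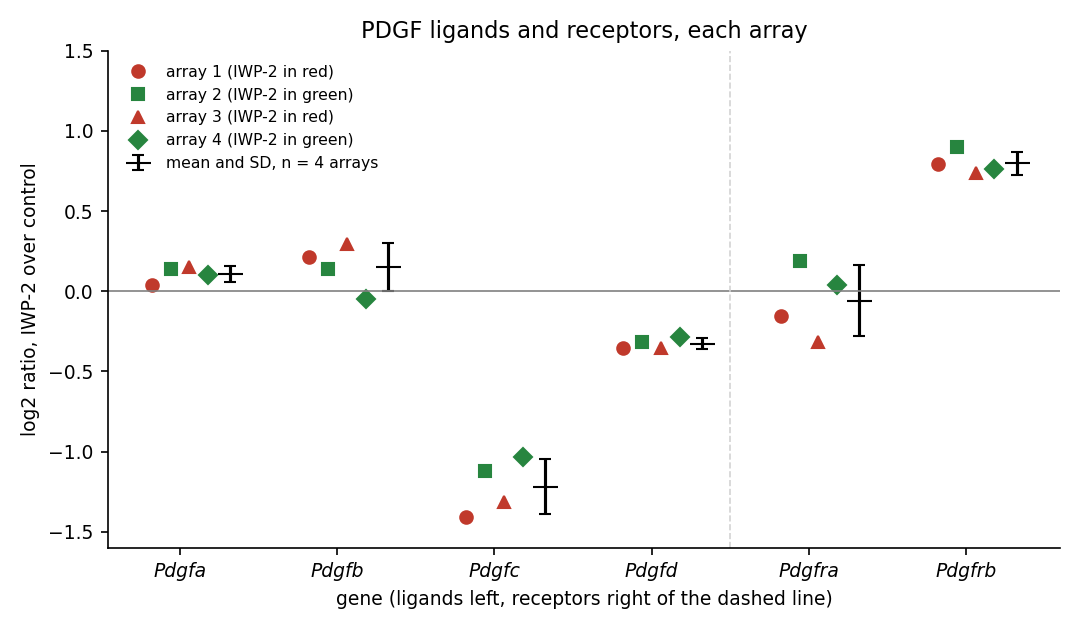
Log2 ratio of IWP-2 over control (vertical axis) of the 6 genes on each of the 4 arrays, with the brighter probe for Pdgfa and Pdgfb. Colours give the channel of the treated RNA, and the black marks are the mean and the SD of the 4 arrays. All 4 points of Pdgfc lie below -1, those of Pdgfd near -0.33 and those of Pdgfrb near 0.80, while the points of Pdgfra lie on both sides of 0.

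Among the ligands, Pdgfc changed most. Pdgfc encodes the C chain, a ligand of PDGFRα that mesenchyme and epithelium of many embryonic organs express. Its processed intensity was 3069, 3241, 4126 and 3223 in the control channels of arrays 1 to 4, and 1143, 1486, 1663 and 1570 in the treated channels. Every treated channel was dimmer than every control channel. On the normalised log2 scale the control levels were 13.72, 13.76, 13.81 and 13.47, and the treated levels 12.314, 12.644, 12.497 and 12.432, again without overlap. Levels of control and treated channels did not overlap for 22.5% of all genes tested, and among the members this held for Pdgfc and Pdgfrb. The log2 ratios were -1.41, -1.12, -1.31 and -1.03, with a mean of -1.22 ± 0.17 (SD, n = 4), which is a 2.33-fold lower level (limma, adjusted p = 2.07e-05). Of the 22461 genes, 106 had a lower ratio. The fall followed the dye order in size, with means of -1.36 on arrays 1 and 3 and -1.08 on arrays 2 and 4 (unadjusted limma p of the dye term 0.0131), and was over 1 on the log2 scale on each array. Pdgfc was the one member with an intensity over 100 and a change of more than 2-fold on each of the 4 arrays in the processed signals.

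Pdgfd encodes the D chain, a ligand of PDGFRβ. The log2 level was 12.87, 12.45, 12.72 and 12.64 in the control channels and 12.52, 12.14, 12.36 and 12.36 in the treated channels. The levels of the groups overlapped, since array 2 was dimmer than the others in both channels, but the treated channel was the lower one on each array. The log2 ratios were -0.35, -0.31, -0.36 and -0.28, with a mean of -0.33 ± 0.035 (SD, n = 4), or 1.25-fold lower (limma, adjusted p = 0.00165). The means were -0.35 on arrays 1 and 3 and -0.30 on arrays 2 and 4, with an unadjusted limma p of the dye term of 0.486. The fall was small in size and had the smallest spread between arrays of the 6 genes. A larger size of change was seen for 10.4% of all genes tested, against 0.534% for Pdgfc.

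The ligand genes Pdgfa and Pdgfb encode the chains that are cut inside the cell. The brighter Pdgfa probe had log2 levels of 13.68, 13.83, 13.84 and 13.66 in the control channels and 13.72, 13.97, 13.99 and 13.76 in the treated channels. Its log2 ratios were 0.041, 0.14, 0.15 and 0.10, all above 0, with a mean of 0.11 ± 0.048 (SD, n = 4), which did not pass the test (limma, adjusted p = 0.0899). The other Pdgfa probe gave 0.11 ± 0.043, but it shares 51 bases with the first (chr5:139452934-139452993 and chr5:139452925-139452984, mm9, minus strand) and adds no independent measurement.

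For Pdgfb, which vessels use to attract mural cells, the brighter probe (chr15:79826376-79826435, mm9, minus strand) had log2 ratios of 0.22, 0.14, 0.30 and -0.050. These have a mean of 0.15 ± 0.15 (SD, n = 4) and missed the threshold (limma, adjusted p = 0.0522). The dimmer probe (chr15:79827438-79827497, minus strand), 1002 bases away, had ratios of 0.19, 0.048, 0.31 and 0.030, with a mean of 0.15 ± 0.13. Its processed intensity was low, at 67 to 110 over all channels, against 702 to 1203 for the brighter probe. Both probes were higher on arrays 1 and 3, which carry the treated RNA in red, than on arrays 2 and 4. The means were 0.26 against 0.044 for the brighter probe and 0.25 against 0.039 for the dimmer one. The call of Pdgfb rests on how its data are combined. With the mean of both probes it was called higher (0.15, limma, adjusted p = 0.0351), and likewise without array 4 (0.20, adjusted p = 0.0361), which raises the count of members called higher from 1 to 2.

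**Figure D2:**
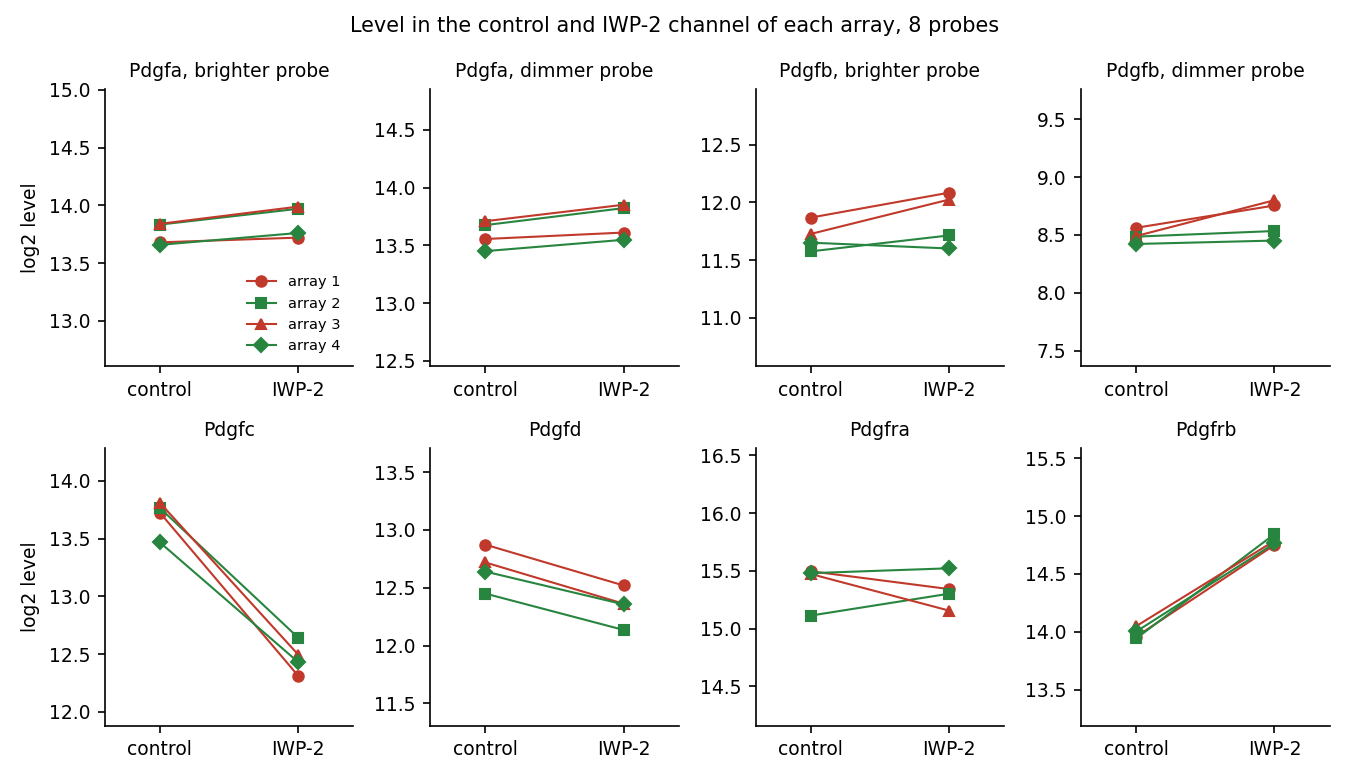
Normalised log2 level (vertical axis, a range of the same width in each panel) of the 8 probes in the control and the IWP-2 channel, with 1 line per array; red lines are arrays with the treated RNA in the red channel and green lines those with it in the green channel. The lines of Pdgfc all fall and those of Pdgfrb all rise without overlap of the ends, and those of Pdgfd fall in parallel. The lines of Pdgfra cross.

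Of the receptor genes, Pdgfrb was called higher and Pdgfra was not called. Pdgfrb (probe at chr18:61244606-61244665, mm9, plus strand) had processed intensities of 3517, 3523, 4605 and 4719 in the control channels and 6097, 6497, 7886 and 7898 in the treated channels. Its log2 levels were 13.96, 13.94, 14.05 and 14.00 in control and 14.75, 14.85, 14.79 and 14.76 after IWP-2, so that the groups were far apart and each of them was tight. The log2 ratios were 0.79, 0.90, 0.74 and 0.76, with a mean of 0.80 ± 0.073 (SD, n = 4), or 1.74-fold higher (limma, adjusted p = 9.34e-05). Counted from the highest ratio, Pdgfrb ranked 77 among the 22461 genes. Its mean ratio was 0.76 on arrays 1 and 3 and 0.83 on arrays 2 and 4, and it stayed below 2-fold on each array.

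Pdgfra (probe at chr5:75593888-75593947, mm9, plus strand) had log2 levels of 15.50, 15.11, 15.47 and 15.48 in the control channels and 15.34, 15.30, 15.16 and 15.52 in the treated channels, with full overlap. The log2 ratios were -0.15, 0.19, -0.32 and 0.042, with a mean of -0.060 ± 0.22 (SD, n = 4), and did not pass the test (limma, adjusted p = 0.387). The ratios were negative on arrays 1 and 3 and positive on arrays 2 and 4, with means of -0.24 and 0.12. They thus followed the dye order, and the dye term of this gene had an unadjusted limma p of 0.00993, as 4231 of all genes had one under 0.05 while 0 passed adjustment. With the dye term in the fit, the standard error of the log2 ratio was 0.048 for Pdgfra, next to 0.038 for Pdgfd and 0.043 for Pdgfrb.

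Since both receptors are measured in the same RNA on the same array, their ratios can be subtracted array by array. Pdgfrb exceeded Pdgfra by 0.95, 0.71, 1.05 and 0.72 on the log2 scale, with a mean of 0.86 ± 0.17 (SD, n = 4), or 1.81-fold, on all 4 arrays. An exact two-sided permutation test that flips the sign of each array gave p = 0.125, which is the smallest p that 4 arrays allow, and 0.146 after adjustment over the 7 pairs compared. Among the 6 ligand pairs, Pdgfc lay below Pdgfa by 1.33 ± 0.16 and below Pdgfb by 1.37 ± 0.31. The difference of Pdgfc minus Pdgfd was -0.89 ± 0.14, in the same direction on 4 of 4 arrays. Pdgfa and Pdgfb lay above Pdgfd by 0.43 ± 0.056 and 0.48 ± 0.18. These 5 ligand pairs likewise reached the smallest exact permutation p of 0.125 (0.146 adjusted). Pdgfa minus Pdgfb was -0.043 ± 0.15, with mixed signs on the arrays (exact permutation p = 0.625).

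**Figure D3:**
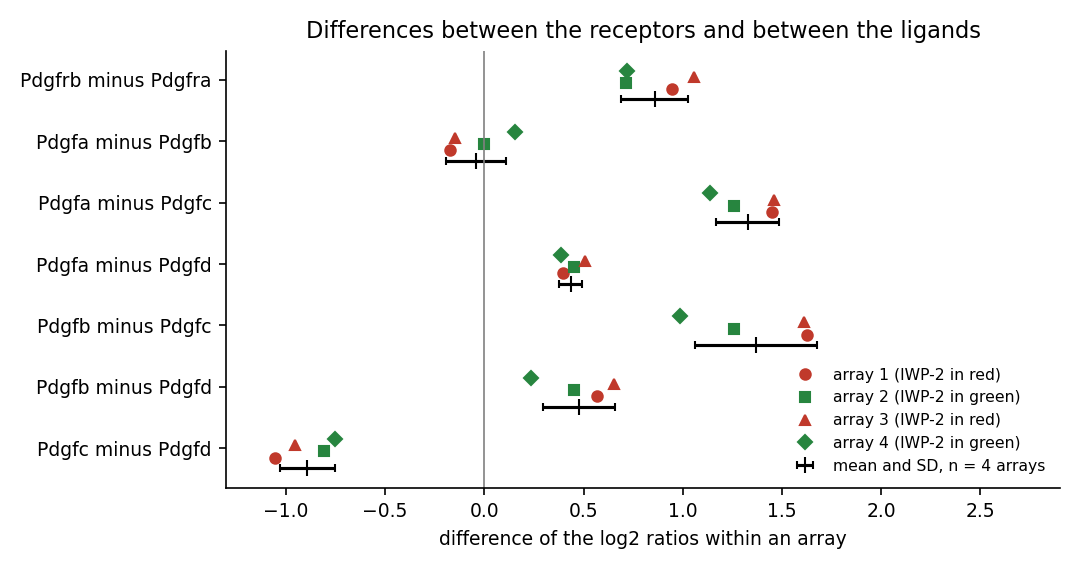
Difference of the log2 ratios of a pair of genes within an array (horizontal axis) for the receptor pair and the 6 ligand pairs, with the mean and SD of 4 arrays in black. All points of 6 of the 7 pairs lie on one side of 0, and those of Pdgfa minus Pdgfb lie around 0.

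The enzymes and co-receptors that act on the ligands changed in both directions. Of 7 genes tested, 2 were lower and 2 higher, with a median log2 ratio of 0.011, next to 0.0011 over all genes. Over all genes tested, 15.0% were called lower and 18.1% higher. Pcsk5, a convertase of the secretory pathway that can cut PDGF chains, fell by 0.64 on the log2 scale, to -0.57, -0.81, -0.59 and -0.61 on the 4 arrays (limma, adjusted p = 0.000313). With the mean of all its probes the fall of Pcsk5 was -0.29 and still passed. Plat, the plasminogen activator that releases active PDGF-CC, was lower with -0.28 ± 0.13 (adjusted p = 0.00882). The convertase Furin (0.33 ± 0.24, adjusted p = 0.0316) and Lrp1, a large endocytic receptor that associates with PDGFRβ (0.19 ± 0.12, adjusted p = 0.0200), were higher. Both of the latter lost their call without array 1, and 1 of them without array 4. Pcsk6, Plau and Nrp1 had values of -0.14, 0.16 and 0.011 and did not pass.

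Of the 15 genes that relay the receptor signal, 3 were lower, 3 higher and 9 did not pass, and their median was 0.0042. The count lower was 2 without array 2, 3 or 4, and the count higher was 2 whichever array was left out. With the deposited series table of rounded fold changes, 1 was lower and 4 higher. The shares over all genes tested were 15.0% lower and 18.1% higher. Stat3, a transcription factor that receptor kinases can activate, rose by 0.52 ± 0.035 (limma, adjusted p = 0.000347), with 0.51, 0.47, 0.55 and 0.54 on the 4 arrays. The docking protein Gab1 fell by 0.44 on the log2 scale (adjusted p = 0.00247), and the adaptor Shc1 rose by 0.26 (adjusted p = 0.00485). The PI3 kinase subunits Pik3ca and Pik3r2 did not pass, with 0.0042 and 0.12, and Pik3r1 was lower with -0.20 (adjusted p = 0.0258). Of 7 genes that shut the receptors down, the ubiquitin ligase Cblb, the phosphatase Ptprj and the scaffold Slc9a3r1 were higher, at 0.20 to 0.24, and 4 did not pass, including Cbl with 0.016 ± 0.50. The count of 3 drops to 1 without array 1, without array 2 or with median centring. With the deposited series table of rounded fold changes it was 0. Without array 3, on which Cbl was at -0.69, the median of these genes was 0.18 instead of 0.016.

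Genes that PDGF induces within hours in cultured fibroblasts were called in both directions. Of 9 tested, 2 were lower, 1 was higher and 6 did not pass, and the median was -0.035. In this fit the share called was near the 33.1% of all genes tested that were called in either direction. The count called higher was 2 with the processed signals, the series table or a normexp offset of 16. It was also 2 with the mean of all probes of a gene and with separate channels. Myc, a growth regulator that is also a known WNT target, fell by 0.51 ± 0.12 (limma, adjusted p = 0.00137), and Ier3 fell by 0.41 (adjusted p = 0.00165). Has2, which makes hyaluronan, rose by 0.38 (adjusted p = 0.00134). Fos and Egr1, the immediate response genes, had ratios of 0.031 ± 0.081 and -0.035 ± 0.14.

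The class III receptors related to the PDGF receptors are Kit, Csf1r and Flt3. Of these receptors, their ligands and the PDGF receptor-like gene Pdgfrl, 3 of 7 were higher and 0 lower, with a median of 0.058, which was 0.13 without array 4. Among all genes tested, 18.1% were called higher and 15.0% lower. Kit rose by 0.46 ± 0.080 (limma, adjusted p = 0.00100), Csf1 by 0.37 (adjusted p = 0.00114) and Flt3l by 0.22 (adjusted p = 0.00903). Csf1r, which lies next to Pdgfrb in the genome, had -0.055 ± 0.13 and did not pass the test.

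**Figure D4:**
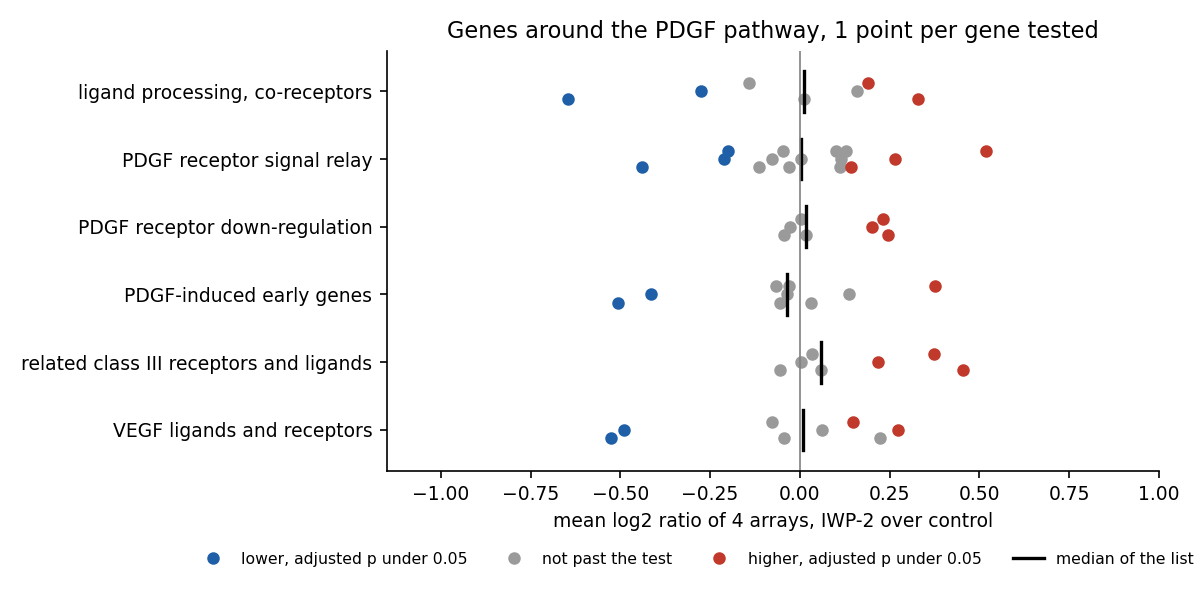
Mean log2 ratio of 4 arrays (horizontal axis) of each gene tested in 6 lists around the PDGF pathway, coloured by the limma call, with the list's median as a black line. The medians of the lists lie between -0.035 and 0.058, and calls in both directions occur in 4 of the 6 lists.

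Cell types that could carry the receptors or ligands were followed with marker genes. Mural cell markers, which in vessels accompany Pdgfrb, went both ways: Rgs5 (-0.38 ± 0.21) and the proteoglycan Cspg4 (-0.27 ± 0.23) were lower, Mcam (0.13 ± 0.091) and the aminopeptidase Anpep (0.38 ± 0.13) were higher, and 5 of the 9 tested did not pass. The tenth, Vtn, was not well above background. The count of higher mural markers was 1 whichever array was left out, and that of lower ones was 1 without array 2 and without array 3. With the processed signals 1 was lower and 1 higher. With the deposited series table of rounded fold changes 0 were lower and 0 higher. Cspg4 was at 0.067 on array 1. Among all genes tested, 33.1% were called in either direction. Their median was 0.020, and 0.098 without array 4. The summed level of the mural markers, on the linear scale of the normalised levels, was 67482 to 70402 in the control channels and 63657 to 71673 in the treated channels. In the same samples Pdgfrb was higher on 4 of 4 arrays. The part of these cells in the rise of Pdgfrb was not tested.

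Of 6 endothelial markers, 4 were higher and 0 lower, with a median of 0.19 and summed levels of 51999 to 60436 in control and 59577 to 69812 after IWP-2. The count of 4 was 2 without array 3 and 2 without array 4. Over all genes tested, 18.1% were called higher. Of 6 macrophage markers, 5 were higher, with a median of 0.38 and summed levels of 14084 to 16146 and 16222 to 19014. Csf1r, also on this list, did not pass, with -0.055. All 7 epithelial markers were higher, with a median of 0.30 and sums of 180112 to 195398 and 204756 to 255687. With the deposited series table of rounded fold changes, 1 endothelial, 1 macrophage and 2 epithelial markers were called higher, at medians of 0.20, 0.42 and 0.29. For megakaryocytes and platelets, which store PDGF, 1 of 5 markers passed (3 without array 1): Pf4 was at 0.56 ± 0.57, with 1.31 on array 3, and lost its call without that array (limma, adjusted p = 0.0546). The part of these cells in the values of the ligands and receptors was not tested.

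The lists of mesenchymal markers differed from each other. Of the fibroblast and mesenchyme list, which contains both PDGF receptors, 2 of 8 were higher. These were Pdgfrb itself and, as the only other marker, Dcn (0.17 ± 0.074, limma, adjusted p = 0.0287). Without array 2 only Pdgfrb was left. The collagens Col1a1, Col1a2 and Col3a1 did not pass, with 0.23, 0.12 and -0.067. Among all genes tested, 15.0% were called lower and 18.1% higher. The rise of Pdgfrb was the largest ratio of this list. Of 6 ureteric mesenchyme markers, 5 were lower and 1 did not pass, with a median of -0.50 (2 lower with the series table). They include Tbx18 (-0.74 ± 0.26), the regulator that marks the undifferentiated ureteric mesenchyme, Sox9 (-0.57 ± 0.58) and Tcf21 (-0.67 ± 0.11). On array 2 Sox9 was at 0.23 and on the other arrays between -1.05 and -0.53. All 6 smooth muscle markers were lower, with a median of -0.65 (1 of 6 with the series table of fold changes that the authors deposited, with a median of -0.84). Tagln (-0.73 ± 0.23), Cnn1 (-0.98 ± 0.29), Actg2 (-0.87 ± 0.38) and Myocd (-0.58 ± 0.19, and -1.01 in the processed signals) had the largest falls. Of 6 renal stroma markers, Foxd1 (0.31) and Meis1 (0.33) were higher, and Tcf21, which is also on the ureteric list, was lower. The mean fall of Pdgfc was larger than that of each of these markers, but on array 4 Cnn1 and Actg2, at -1.41 and -1.40, lay below Pdgfc, and the difference was not tested. The part of these cells in the fall of Pdgfc was not tested either.

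**Figure D5:**
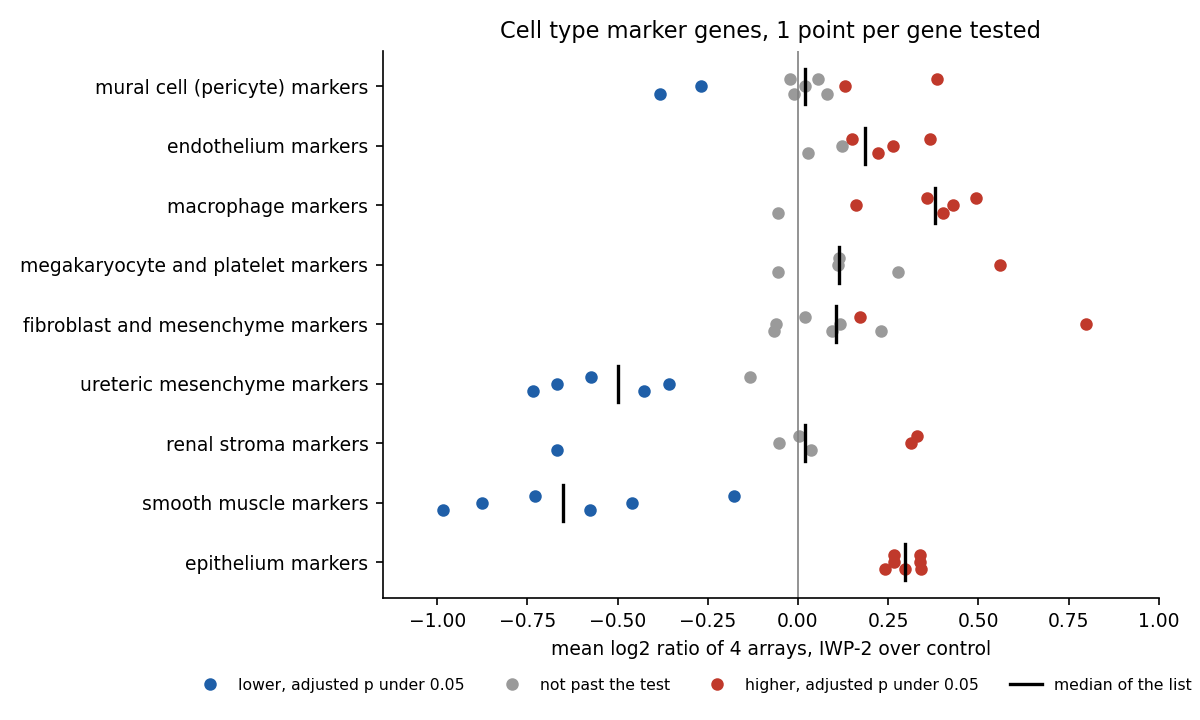
Mean log2 ratio of 4 arrays (horizontal axis) of each gene tested in 9 lists of cell type markers, coloured by the limma call, with the list's median as a black line. Ureteric mesenchyme and smooth muscle markers lie on the lower side, epithelial and most macrophage markers on the higher side, and mural markers on both. The highest point, at 0.80 in the fibroblast and mesenchyme list, is Pdgfrb.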

How the data were processed

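Each of 4 two-colour Agilent arrays compared 1 pool of treated with 1 pool of control ureters. The study's methods give the pools' size only as a lower limit. Arrays count as replicates, and p-values measure the spread between arrays. If some arrays repeat the same pools, this is not the spread between pools, and the p-values are too small. All arrays share 1 slide and 1 scan. The deposited spot intensities (mean signal and median background, raw; processed signal, background-subtracted and dye-normalised per the file headers) and the deposited log10 ratio were made by the authors with Agilent Feature Extraction 10.7.3.1. The log10 ratio served only to check directions. The deposited series table holds a score per probe and array, the authors' signed fold change rounded to 1 decimal, with unstated normalisation. Its log2 values correlated with the treated over control ratios of the processed signals with r of 0.987 to 0.992, which sets its direction. It was an alternative only.

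Raw intensities were corrected by normexp (offset 50) and normalised by loess (span 0.3) in limma 3.58.1 (R 4.3.3). Control and outlier spots were left out and the 4 spots of a probe averaged. A gene was tested if more than 0.5 of its spots were well above background in all 4 control or all 4 treated channels, and its brightest probe stood for it. The offset draws ratios of dim probes towards 0. Ratios were fitted with lmFit and eBayes, with a dye term. Adjusted p is two-sided, after Benjamini-Hochberg correction over all genes tested, with 0.05 as the threshold. The SD given beside a ratio is that between arrays and contains the dye effect. Levels per channel were scaled between arrays by Aquantile, and levels of different probes were not compared. Summed levels of a marker list add the normalised levels of its genes on the linear scale, so that bright probes weigh most. Pairs of members were compared by exact permutation over the 16 sign flips. The fit was also run on simulated data. The simulated arrays were drawn independently, so that this run cannot address arrays that repeat the same pools. The members and gene lists were chosen with earlier results of these data known. List genes were named if past the test with a size of at least 0.5, and other list genes that are named were chosen after their values were seen. Adgre1 stood for the older name Emr1. Promoter windows were taken from the RefSeq table for 4 of the 6 members. For the members, windows on chromosome 18, where the Pdgfrb probe lies, were left out.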

Additional observations from a re-analysis of the deposited data

Results flagged for a closer look

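Each of the 40 results (the members, their pairs, the named genes of the lists and the list medians) was searched for 1 array far from the other 3, by Dixon's criterion for 4 values. Such a criterion sets apart about 1 in 20 by chance, or 2 here, and 3 were found. None was a PDGF gene or a pair of them. Pcsk5 was at -0.81 on array 2, with -0.61 to -0.57 on the others. The median of the mural markers was -0.080 on array 4, with 0.044 to 0.067 on the others. The median of the endothelial markers was 0.15 on array 2, with 0.18 to 0.19 on the others.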

How the results depend on the processing

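The calls of Pdgfc, Pdgfd and Pdgfrb held under all 14 alternatives with a test (other signals and background offset, the series table, median centring, no dye term, separate channels, other filters and probe rules, each array left out), with mean ratios of -1.25 to -1.19, -0.35 to -0.31 and 0.75 to 0.83. Pdgfa and Pdgfra passed under none, with adjusted p of 0.0663 to 0.368 and 0.201 to 0.844. Pdgfb passed with the mean of all probes (0.15) and without array 4 (0.20), with ratios of 0.10 to 0.20 when 1 array was left out and adjusted p of 0.0351 to 0.229 over the alternatives, and the count of members called higher was then 2. Without replicate 1, 2 or 3 it stayed at 1. The receptor difference ranged from 0.72 to 1.00, and that of Pdgfa minus Pdgfb from -0.16 to 0.076. Of 168 values of the 12 named list genes, 0 changed sign and 11 lost their call. Of 420 counts of called list genes under the alternatives, 58 moved by more than 1.5 times, 17 of them with the series table (among them those of smooth muscle, epithelium and macrophages) and 17 with an array left out. All genes called lower were 3360, but 2050 with the series table and 2177 without array 3, and those called higher were 4069 and 1833. A block for slide or scan was not run, as all arrays share both. Only 4 arrays limit the precision, and no exact test over them can go below 0.125. The ratios of Pdgfra, Pdgfc, Pdgfb and Pdgfd were split by the dye order of the arrays, with unadjusted limma p of the dye term of 0.00993, 0.0131, 0.0626 and 0.486.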

Other observations

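The VEGF family, whose receptors are close relatives of the PDGF receptors, was also measured. Of 8 genes tested, 2 were lower and 2 higher, with a median of 0.0096. Among all genes tested, 15.0% were called lower and 18.1% higher. Figf, which encodes the lymphangiogenic ligand VEGF-D, fell by 0.53 ± 0.25 on the log2 scale, at -0.19, -0.49, -0.65 and -0.78 on the 4 arrays (limma, adjusted p = 0.00512), and Pgf fell by 0.49 ± 0.24 (adjusted p = 0.00185). Vegfb (0.27, adjusted p = 0.00453) and the receptor Kdr (0.15, adjusted p = 0.0453) were higher, and 1 of these calls was left without array 2 or without array 3. The count called higher was also 1 with the processed signals, median centring or no dye term. With the series table, 0 genes of this family were called lower and 1 higher. Vegfa had -0.077 ± 0.12 and did not pass the test.

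Few genes had log2 ratios close in size to those of Pdgfrb on the 4 arrays. Of 17846 other genes with a symbol or synonym in the RefSeq table, 10 lay within a Euclidean distance of 0.2 of its 4 log2 ratios, and 425 within that distance of Pdgfra. The nearest to Pdgfrb were Spry2 (0.087), which encodes an inhibitor of receptor tyrosine kinase signalling, the sodium channel gene Scn1a (0.14), Cyfip2 (0.15), Colgalt2 (0.17) and the elastic fibre gene Fbln5 (0.17). Their mean log2 ratios were between 0.78 and 0.83. The nearest to Pdgfra were Top1, Zscan30, Gnai3, Zfand5 and Piga, at distances of 0.035 to 0.052 and with mean ratios between -0.064 and -0.053. This distance depends on the size of the ratios. Few genes had a ratio as high as Pdgfrb, which ranked 77 among 22461 genes, whereas Pdgfra lay near 0, as most genes did. The counts of 10 and 425 therefore cannot tell whether the course of Pdgfrb from array to array is rare.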
